A study of Mus musculus with 32 samples.

Results

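Mouse embryos begin transcription in a minor wave of zygotic genome activation (minor ZGA), which starts in the zygote and runs into the early 2-cell stage, and in a major wave at the late 2-cell stage. The regions described here are promoters whose chromatin was already accessible before the first cleavage and still accessible after it. A member is an ATAC-seq peak of DMSO-treated early 2-cell embryos that overlapped a peak of DMSO-treated late 1-cell embryos by 1 bp or more and lay within 1 kb of a transcript start of the GENCODE M21 annotation. There were 3686 members among the 27693 early 2-cell DMSO peaks (13.3%), equal to 45.9% of the 8028 peaks near a start, and 4943 of 55450 annotated genes had a start within 1 kb of one. The members were therefore chosen by the 2 DMSO peak lists, and whatever follows about those lists is a description and not a test.

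ATAC-seq marks DNA that a transposase can reach. A promoter, the stretch around a transcript start, is usually reachable when transcription factors and the transcription machinery occupy it, and many promoters of widely expressed genes sit in CpG islands that stay free of DNA methylation. CBP and p300 are acetyltransferases that acetylate histones at promoters and enhancers, including H3K27, and A-485 blocks their catalytic site. Trichostatin A (TSA) acts in the opposite direction by blocking histone deacetylases.

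All embryos were wild type, made by in vitro fertilization of B6D2F1/J oocytes with B6D2F1/J sperm from mice of 6 to 8 weeks. They were cultured in KSOM medium with 10 µM A-485 or with DMSO from 4 to 20 hours post insemination (hpi), or with 50 nM TSA or DMSO from 8 to 28 hpi. A-485 was then washed off, so late 2-cell embryos of that experiment were collected in medium without it. The paper reports that staining for acetylated H3K27 returned to the control level after the wash. At late 2-cell, "with A-485" and "after A-485" mean embryos treated earlier. The A-485 experiment has RNA of zygotes and of both 2-cell stages and the TSA experiment has RNA of the late 2-cell stage, in 8 groups of 2 libraries of pooled embryos. Open chromatin was measured in the A-485 experiment before and after the first cleavage (late 1-cell, early 2-cell), and each of these 4 groups has 1 deposited peak list that joins both replicates, so that no spread between replicates can be given for a peak.

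The 16 RNA libraries held 13206163 to 32585987 expected counts. The 6 oocyte and zygote marker genes (Zp3, Gdf9, Nlrp5, Ooep, Zar1, Oosp1) were above 1 FPKM in every group, and summed to 974 to 988 FPKM in late 2-cell A-485 libraries and to 584 to 628 in their DMSO libraries. Summed markers of cumulus cells stayed at or below 4.12 FPKM and those of fibroblasts at or below 2.64 FPKM. Sperm markers reached 18.9 FPKM in zygote DMSO and 15.8 FPKM in zygote A-485 libraries and 8.44 FPKM or less at later stages, while erythroid genes reached 44.6 to 46.8 FPKM in the TSA libraries against 0.78 to 1.36 in their DMSO libraries. The 5 early 2-cell markers, the Zscan4c, Zscan4d, Usp17lc, Zfp352 and Tdpoz4 genes, summed to 353 to 415 FPKM in DMSO-treated early 2-cell embryos and to 6.58 to 7.87 FPKM after A-485. At late 2-cell they summed to 221 to 235 FPKM with DMSO and to 51.3 to 51.8 FPKM with A-485. The part of these markers in the results was not tested.

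The 300 bases around the summit of 5 members are printed below, 3 with the highest early 2-cell DMSO enrichment among members found again in both A-485 lists (Mrps33, Stat3, Tmem218) and 2 of the highest among members found in neither (Ankrd22, Btn2a2). They are shown as examples of each kind and are the plus strand of the RefSeq assembly of GRCm38, 5′ to 3′, and capitals mark matches on either strand of 10 short motifs.

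Mrps33, chr6:39810828-39811127: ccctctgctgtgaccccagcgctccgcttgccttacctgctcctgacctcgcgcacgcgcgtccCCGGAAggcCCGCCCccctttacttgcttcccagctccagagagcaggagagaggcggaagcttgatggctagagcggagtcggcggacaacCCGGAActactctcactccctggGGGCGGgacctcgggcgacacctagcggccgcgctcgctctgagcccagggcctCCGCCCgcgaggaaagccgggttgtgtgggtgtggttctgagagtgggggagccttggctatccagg
Stat3, chr11:100939510-100939809: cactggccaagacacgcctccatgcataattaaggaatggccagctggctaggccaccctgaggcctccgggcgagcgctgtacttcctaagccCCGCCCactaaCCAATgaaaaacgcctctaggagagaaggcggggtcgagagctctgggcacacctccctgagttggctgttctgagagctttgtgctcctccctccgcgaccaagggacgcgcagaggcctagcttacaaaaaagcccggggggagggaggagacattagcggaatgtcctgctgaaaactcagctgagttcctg
Tmem218, chr9:37208036-37208335: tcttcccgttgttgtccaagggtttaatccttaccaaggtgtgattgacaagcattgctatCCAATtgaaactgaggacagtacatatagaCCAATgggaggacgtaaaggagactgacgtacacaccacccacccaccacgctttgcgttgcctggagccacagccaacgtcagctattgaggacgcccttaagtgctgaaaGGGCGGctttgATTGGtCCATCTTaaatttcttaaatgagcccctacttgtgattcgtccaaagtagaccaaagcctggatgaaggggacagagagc
Ankrd22, chr19:34161140-34161439: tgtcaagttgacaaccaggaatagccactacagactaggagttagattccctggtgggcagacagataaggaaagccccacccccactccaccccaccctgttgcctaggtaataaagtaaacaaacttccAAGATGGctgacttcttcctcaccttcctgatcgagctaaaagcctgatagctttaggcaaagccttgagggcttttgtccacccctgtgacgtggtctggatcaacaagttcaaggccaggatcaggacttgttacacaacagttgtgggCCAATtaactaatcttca
Btn2a2, chr13:23489081-23489380: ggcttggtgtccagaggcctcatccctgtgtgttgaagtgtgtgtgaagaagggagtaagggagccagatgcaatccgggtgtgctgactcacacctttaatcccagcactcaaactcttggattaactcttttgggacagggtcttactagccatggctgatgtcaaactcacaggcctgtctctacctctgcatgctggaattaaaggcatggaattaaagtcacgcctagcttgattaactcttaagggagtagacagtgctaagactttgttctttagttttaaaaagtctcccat

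The Mrps33 window, at the start of a mitochondrial ribosomal protein gene, held 3 matches of GGGCGG (the core of the Sp and Klf factor motif) and 2 of CCGGAA (the Ets core), with 68.0% GC. The window of Stat3, a cytokine-activated transcription factor, held 1 GGGCGG and 1 CCAAT (the NF-Y box), with 59.0% GC. Tmem218 encodes a transmembrane protein and its window held 3 CCAAT, 1 GGGCGG and 1 AAGATGG (the core of the YY1 motif), with 48.7% GC. The window of Ankrd22 had 48.3% GC and no GGGCGG, and 31.3% of its bases were soft-masked repeats. In the window of the butyrophilin gene Btn2a2 none of the 10 motifs was found, its GC content was 46.3%, and 47.7% of it was masked. The GC content of Tmem218 is close to that of these 2.

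Over all members the windows had a median GC content of 63.7% and a median observed to expected CpG ratio of 0.82. These values were 52.3% and 0.40 for the 4342 promoter peaks of early 2-cell DMSO embryos that had no late 1-cell peak (newly opened promoter peaks), and 52.7% and 0.38 for 32851 RefSeq promoters of the same length. GGGCGG was found in 77.1% of members, 34.5% of newly opened promoter peaks and 35.7% of RefSeq promoters. CCAAT was found in 55.6%, 29.8% and 37.4%, CCGGAA in 28.4%, 15.2% and 14.9%, AGGGGGC (a core of the CTCF motif) in 19.2%, 8.87% and 10.6%, CACGTG (the E-box of Myc and Usf factors) in 12.9%, 7.53% and 7.15%, and AAGATGG in 8.30%, 6.45% and 6.34%. GCATGCGC (the Nrf1 core) was found in 5.21%, 3.29% and 2.71% and TGACGTCA (the cAMP response element) in 4.56%, 1.36% and 1.79%. AAGGTCA, a core site of nuclear receptors such as Nr5a2, was less common in members (2.44%) than in newly opened promoter peaks (5.04%) and RefSeq promoters (4.72%), and so was the TATA box TATAAA (3.88%, 8.38% and 13.6%). Windows of peaks are centred on summits and those of RefSeq on starts, the 2 DMSO lists chose both peak classes, and a match is no evidence that a factor was bound. Windows of which repeats cover 50% or more made up 1.11% of members (41) and 32.8% of newly opened promoter peaks.

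Members lay tightly on starts. A start lay inside the peak for 94.8% of members and 50.1% of newly opened promoter peaks, and the members were 178 to 2055 bp wide with a median of 740 bp. At 33.2% of members (1222) 2 or more genes had a start within 1 kb, and 593 members (16.1%) lay between or beside protein-coding genes of both strands, against 5.78% of newly opened promoter peaks. Only 106 members (2.88%) were on the X chromosome and none on Y. Of 21951 protein-coding genes, 4116 (18.8%) had a member peak and 2848 (12.97%) a newly opened peak and no member peak.

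Few members lay near the limits of the rule. In the last 100 bp inside the distance limit there were 5 members, of which 3 were found again in the early 2-cell A-485 list, and in the first 100 bp outside it there were 6 peaks, of which 5 were. A single member overlapped its late 1-cell peak by 50 bp or less, and 6 early 2-cell promoter peaks lay within 50 bp of a late 1-cell peak without touching it.

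The first question is whether these promoters were still called open when CBP/p300 were inhibited. Of the 3686 members, 3452 overlapped a peak of the early 2-cell A-485 list (93.7%, 95% Wilson interval 92.8 to 94.4%) and 3059 a peak of the late 1-cell A-485 list (83.0%, 81.7 to 84.2%). Both lists held 2946 members, the early 2-cell list alone 506, the late 1-cell list alone 113, and neither list 121. Of newly opened promoter peaks 34.1% (32.7 to 35.5%) were in the early 2-cell A-485 list and 13.3% in that of late 1-cell. Of the 1917 promoter peaks of late 1-cell DMSO embryos that had no early 2-cell DMSO peak, 60.04% were in the early 2-cell A-485 list and 42.9% in the late 1-cell A-485 list. Of the 758 peaks open at both stages in DMSO but more than 2.5 kb from any start, 56.6% and 42.2% were. The intervals cover counting error of the peaks only. The A-485 lists are shorter than their DMSO lists (13712 against 27693 peaks at early 2-cell and 7094 against 10214 at late 1-cell), and members had to be called in 2 lists while newly opened peaks had to be called in 1, so the share found in another list is not independent of how they were chosen and no test was made.

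A peak's strength, the fold enrichment given by the peak caller, can be compared between lists only where both hold the peak. The median was 8.91 at early 2-cell and 7.48 at late 1-cell in DMSO, and 73.1% of members were stronger at early 2-cell, by a median ratio of 1.18. Between treatments the median ratio of A-485 to DMSO was 1.02 over the 3452 members with a peak in both early 2-cell lists and 0.97 over the 3059 with a peak in both late 1-cell lists, and 53.0% and 44.6% of them were stronger after A-485. Over 1481 newly opened promoter peaks in both early 2-cell lists the ratio was also 1.02, and 52.8% were stronger. The Spearman rank correlation between treatments over these peaks was 0.45 and 0.61, as a description, since all peaks of a list share the same libraries and depth. Among early 2-cell DMSO peaks the median was 9.19 for members in both A-485 lists, 7.90 for those in the early 2-cell list only, 7.93 for those in the late 1-cell list only and 7.65 for those in neither.

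**Figure D1:**
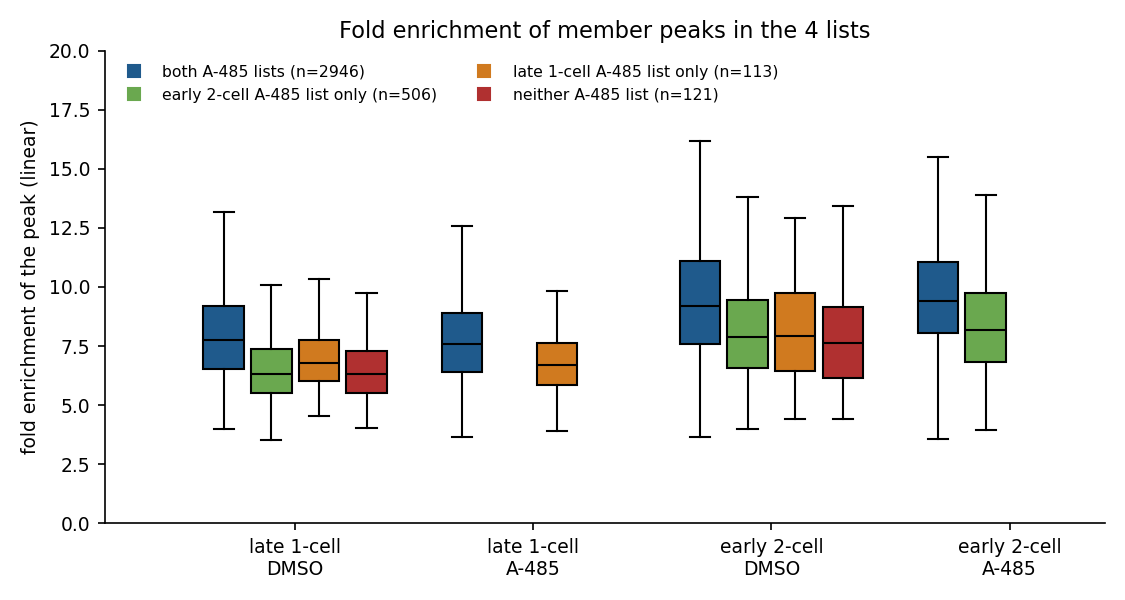
Fold enrichment of member peaks (linear scale, vertical axis) in each of the 4 peak lists (horizontal axis), with members split by the A-485 lists that hold them. Boxes are quartiles with the median, whiskers reach the farthest peak within 1.5 times the box, and the early 2-cell DMSO medians run from 7.65 (neither list) to 9.19 (both lists).

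The share found again at early 2-cell rose with GC content and with closeness to a start. All early 2-cell promoter peaks together were cut into 3 groups of like size, at 53.7% and 64.3% GC, and held 268, 1681 and 1737 members. Of these 71.6%, 94.6% and 96.1% were in the early 2-cell A-485 list. The same groups gave 7.86%, 52.4% and 79.9% for newly opened promoter peaks. With a start inside the peak, 94.8% of members and 59.99% of newly opened peaks were found again, and with the start outside, 73.2% of 190 members and 8.08% of newly opened peaks. In 3 groups by early 2-cell DMSO enrichment, from weakest to strongest, the share was 89.2%, 93.0% and 96.1% for members and 33.5%, 36.7% and 31.3% for newly opened peaks.

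**Figure D2:**
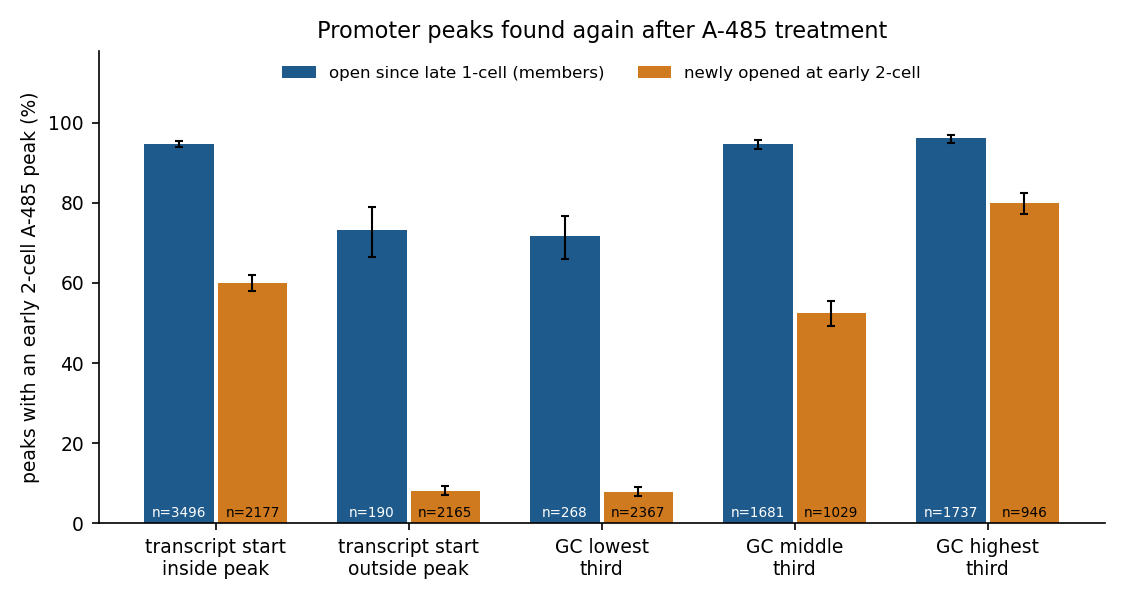
Share of promoter peaks that overlap a peak of the early 2-cell A-485 list (vertical axis, percent), for members and newly opened promoter peaks, split by whether a transcript start lies inside the peak and by 3 groups of GC content. Bars start at 0, error bars are 95% Wilson intervals (counting error only), and the share runs from 71.6% to 96.1% in members and from 7.86% to 79.9% in newly opened peaks.

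The 121 members in neither A-485 list differed from the others in sequence and position, which the rule had not used beyond the distance to a start. Their median GC content was 55.7% and their CpG ratio 0.47, against 64.0% and 0.83 for members in both lists. Repeats covered 50% or more of the window in 22 of 121 (18.2%) against 11 of 2946 (0.37%). GGGCGG was found in 43.8% against 79.5% and CCAAT in 38.02% against 59.1%, and a start lay inside 68.6% against 97.0%. Strong peaks were among them. The Ankrd22 peak (chr19:34160915-34161774) had a fold enrichment of 16.3 at early 2-cell and 10.8 at late 1-cell in DMSO and no peak in either A-485 list. Kat14, which encodes an acetyltransferase subunit of the ATAC coactivator complex, had 14.0 and 4.62 (chr2:144368370-144369096). Btn2a2 had 13.4 and 8.03, and Sfi1, a centrin-binding protein gene, had 13.3 and 4.35, with its nearest start 624 bp outside the peak.

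Most replication-dependent histone genes among the members had no peak in the early 2-cell A-485 list, a group singled out after its values were seen. Histone genes of the Hist clusters are transcribed in S phase from closely spaced promoters, often 1 H2A and 1 H2B gene sharing a promoter. Of 72 core and linker histone genes, 24 had a member peak, at 15 distinct peaks, of which 9 were on chromosome 13 and 4 on chromosome 3. In DMSO-treated embryos these peaks had an early 2-cell enrichment of 5.49 to 12.7 with a median of 8.44, close to the 8.91 of all members. The late 1-cell A-485 list held 12 of the 15 peaks, at 5.44 to 9.83-fold enrichment. The early 2-cell A-485 list held 3 of 15, those of Hist1h1c, H2afz and H3f3b. H2afz and H3f3b encode the replacement variants H2A.Z and H3.3, which are made outside S phase too, so that 1 of 22 genes with a symbol starting with Hist (the linker histone gene Hist1h1c) had its peak in the early 2-cell A-485 list, while 17 of 22 had one in the late 1-cell A-485 list.

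Single histone peaks show the same course. The peak shared by Hist1h2ad and Hist1h2bf (chr13:23574072-23574666) had an enrichment of 8.87 at late 1-cell and 12.7 at early 2-cell in DMSO, 8.82 at late 1-cell after A-485, and no early 2-cell A-485 peak. That of Hist1h2ac and Hist1h2bc (chr13:23683876-23684373) had 8.74, 11.03 and 9.83 and likewise no early 2-cell A-485 peak. Hist1h1c (chr13:23739467-23740042) had 8.997 and 10.7 in DMSO and 6.01 and 9.65 after A-485. The peaks of Hist1h2ah and Hist1h2bk, of Hist1h3a and Hist1h4a, and of Hist3h2a were in neither A-485 list. Hist symbols made up 16 of the 121 protein-coding genes at members in the late 1-cell A-485 list only (13.2%), 5 of 102 at members in neither (4.90%), and 1 of 3362 at members in both lists (0.03%).

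The next question is how much RNA these promoters gave. Of the 4943 genes, 4920 have a value in the RNA files, and of the 4116 protein-coding ones, 4114. In DMSO-treated embryos 82.6 and 82.7% of the protein-coding member genes were at 1 FPKM or more in the zygote libraries, 85.2 and 85.3% in those of early 2-cell, and 88.1 and 88.3% in those of late 2-cell. Of the 4114, 3183 (77.4%) had a mean of 1 FPKM or more in every DMSO group, and 50 (1.22%) stayed under 0.1 FPKM in all of them. The median FPKM of protein-coding members was 11.1 in both zygote DMSO libraries, 8.36 and 8.46 in those of early 2-cell, and 12.8 and 13.6 in those of late 2-cell. For protein-coding genes of newly opened promoter peaks it was 6.46 and 6.63, then 5.61 and 5.79, then 9.68 and 10.7, and for the 14938 protein-coding genes with neither it was 0.06 to 0.14 FPKM. In each of the 6 libraries of the A-485 experiment in DMSO the members had the highest median of these classes. Much of the RNA in a zygote was stored by the oocyte, so a level there does not show that the promoter was active after fertilization.

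Early 2-cell RNA level had no steady order along peak strength, and late 2-cell level had a descending one. In 5 groups of member genes by early 2-cell DMSO enrichment, with median enrichments of 6.14, 7.72, 8.95, 10.4 and 12.7, the median early 2-cell DMSO level was 8.17, 9.40, 8.17, 8.19 and 8.48 FPKM. At late 2-cell it was 17.4, 15.8, 12.3, 11.9 and 10.5 FPKM from the weakest to the strongest group.

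Over genes of all types, RNA levels differed by the later fate of the peak. Median early 2-cell DMSO levels were 6.34 and 6.37 FPKM for genes of members in both A-485 lists (n = 3990), 4.52 and 4.63 for the early 2-cell list only (n = 623), 1.99 and 2.29 for the late 1-cell list only (n = 166), and 2.57 and 2.79 for neither (n = 141). In the zygote the genes of members in neither list had a median of 0.99 FPKM in both DMSO libraries, and at late 2-cell of 4.00 and 5.06 FPKM. Protein-coding genes made up 3362 of 4009 genes of members in both lists and 531 of 624 for the early 2-cell list only. They made up 121 of 167 for the late 1-cell list only and 102 of 143 for neither. The part of gene type in these levels was not tested.

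**Figure D3:**
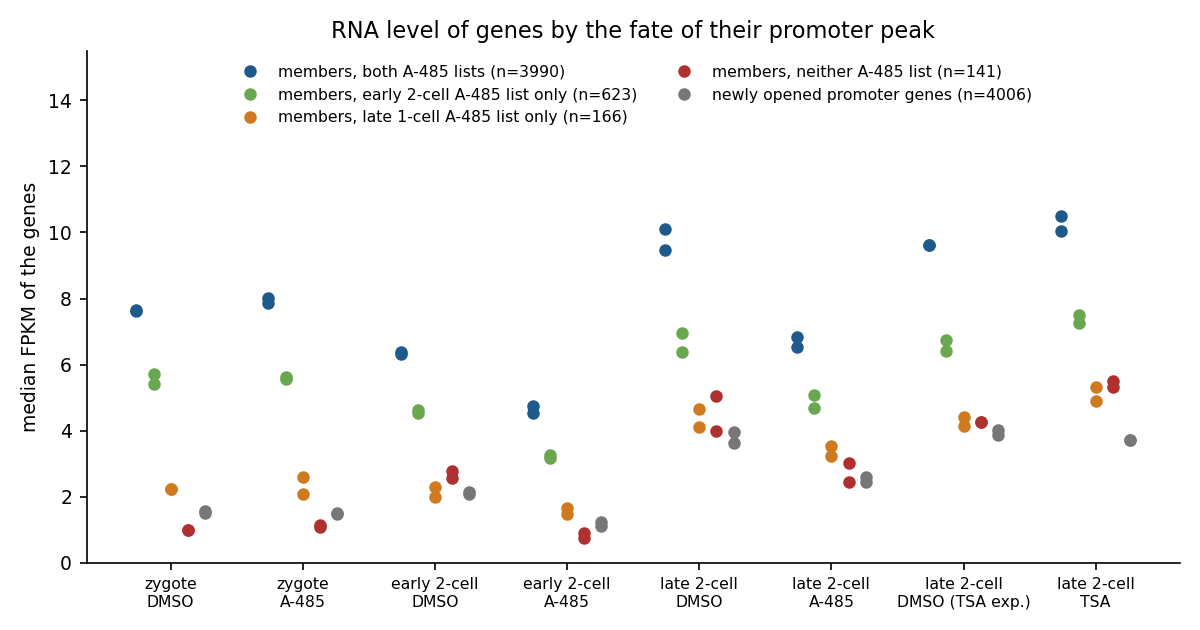
Median FPKM (linear scale, vertical axis) of the genes of each peak class in every library, over genes of all types. Libraries are grouped by stage and treatment (horizontal axis), 2 points per group for 2 libraries. Genes of members in both A-485 lists are the highest class in every group, and those of members in neither list stand at 0.99 FPKM in zygote DMSO libraries and at 2.57 and 2.79 FPKM in early 2-cell DMSO libraries.

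The member genes with the highest early 2-cell DMSO levels were Mphosph6 (2627 and 2655 FPKM), whose product works with the RNA exosome, the histone H2A genes Hist2h2aa2 (2743 and 2482 FPKM) and Hist2h2aa1 (2103 and 2225 FPKM), Dppa3 (1730 and 1531 FPKM), a maternal factor that protects DNA methylation, and Spin1 (1344 and 1346 FPKM), a histone methylation reader of oocytes. Trip12 and Ube2d3 of the ubiquitin pathway, Magoh of the exon junction complex, Cks2 of cyclin-dependent kinase complexes and Strn, a scaffold protein, followed, all between 756 and 1196 FPKM. Hist2h2aa1 and Hist2h2aa2 are near-identical copies, so the split of reads between them is uncertain.

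Some gene families had many members and others almost none. Members covered 5 of 7 chaperonin subunits of the lists used here (71.4%), 40 of 72 cell cycle and replication genes (55.6%), 39 of 74 ribosome biogenesis factors (52.7%), 18 of 36 aminoacyl-tRNA synthetases (50.0%), 23 of 47 translation initiation factors (48.9%), 26 of 58 genes of RNA polymerase II and Mediator (44.8%), 36 of 83 cytosolic ribosomal proteins (43.4%), 40 of 101 respiratory chain genes (39.6%), 19 of 48 proteasome subunits (39.6%), 23 of 59 splicing factors (39.0%), 13 of 34 promoter-binding factors (38.2%) and 24 of 78 mitochondrial ribosomal proteins (30.8%), beside 18.8% of all protein-coding genes. They covered 6 of 31 maternal-effect and oocyte genes (19.4%), 2 of 39 genes of multicopy 2-cell families (5.13%), 5 of 158 developmental transcription factors (3.16%) and 0 of 1093 olfactory receptors. How ATAC-seq reads of near-identical gene copies were placed is not given in the sources used here, so the share of multicopy families is uncertain. Of 1917 Polycomb target genes taken from the study, 28 (1.46%) had a member peak, all 28 in the early 2-cell A-485 list, with a median of 0 FPKM at every DMSO stage of the A-485 experiment. Of the 2 with most early 2-cell RNA among them, St3gal1, a sialyltransferase gene, was at 0.02 and 0.21 FPKM. The study defined its Polycomb targets partly by expression under 0.1 FPKM in preimplantation embryos, so their low RNA follows from that choice.

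From the zygote to the late 2-cell stage under DMSO, members were higher about as often as all genes and lower less often. A call here and below needed an adjusted p under 0.05 by edgeR's quasi-likelihood test, a change of 2-fold or more, and 1 FPKM or more as the mean of either group. Of 4457 member genes tested 3947 passed the FPKM limit, of which 932 (23.6%) were lower and 1295 (32.8%) higher in the late 2-cell DMSO libraries of the TSA experiment than in zygote DMSO libraries. Over all genes 29.8% were lower and 32.6% higher. Of genes of members in neither A-485 list, 52 of 98 (53.1%) were higher. Zfp622, a pre-ribosomal maturation factor, had 0.06 and 0 FPKM in zygotes and 123 and 143 FPKM at late 2-cell, with 1 count in all in the zygote libraries and a ratio of counts of 12658 (95% exact counting interval 2271 to 500009). Pheta1, an endosomal trafficking adaptor, also had 1 zygote count, with a ratio of 3007 (539 to 118817). Mrps33 fell from 127 and 114 to 12.1 and 10.4 FPKM, with a log2 fold change of -3.31 ± 0.15 (SE).

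In the zygote almost no member responded to A-485. Of 4273 member genes tested 3568 passed the FPKM limit, 2 of them (0.06%) were lower and 0 were higher, beside 0.101% lower and 0.00839% higher of all genes. By edgeR 83 of the 4273 tested were lower and 116 higher at an unadjusted p under 0.05. Over all 18258 genes tested these counts were 626 and 447. DESeq2 called 2 members lower and 0 higher, beside 13 and 0 of all genes. Duxf3, a copy of the double homeobox factor Dux that drives 2-cell genes, had 7.23 and 6.81 FPKM with DMSO and 0.22 and 0.27 with A-485 (log2 fold change -4.67 ± 0.29, adjusted p = 7.3e-06). The other, the pseudogene Zfp353-ps, is named because so few were called and had 1.25 and 1.96 FPKM with DMSO and 0 and 0.02 with A-485, which is 138 against 1 counts and a ratio of 149.5 (26.4 to 5947). Duxf3 is one of several near-identical copies, so its own level is uncertain. Its peak was in both A-485 lists.

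At early 2-cell members were lower after A-485 about as often as all genes. Of 4460 member genes tested 3767 passed the FPKM limit, 466 (12.4%) were lower and 17 (0.45%) higher, beside 12.7% lower and 0.647% higher of all genes. Their median log2 fold change was -0.06, and that of all genes tested -0.01. Genes of newly opened promoter peaks were lower in 16.0% of cases. By the fate of the peak, 377 of 3115 (12.1%) genes were lower for members in both A-485 lists, 49 of 456 (10.7%) for the early 2-cell list only, 18 of 106 (16.98%) for the late 1-cell list only, and 22 of 90 (24.4%) for neither. These shares were not tested against each other.

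The genes named for a decrease at early 2-cell are those of largest change among members with 10 FPKM or more with DMSO. Zfp622 had 39.9 and 32.0 FPKM with DMSO and 0.12 and 0.46 with A-485 (log2 fold change -6.24 ± 0.30, adjusted p = 2.2e-08), and its peak was in the early 2-cell A-485 list. The zinc finger gene Zfp54 had 35.6 and 35.3 FPKM with DMSO and 0.32 and 0.11 with A-485 (-7.28 ± 0.27, adjusted p = 2.7e-09), and its peak was in neither. Impdh2, the rate-limiting enzyme of guanine nucleotide synthesis, had 23.7 and 23.9 FPKM against 1.66 and 4.18 (-4.37 ± 0.31). In each of these the 2 treated libraries lay below the 2 DMSO libraries, as the naming rule required. Fcgr3, an Fc receptor gene, had 11.7 and 12.1 FPKM against 0.89 and 0.15 (-4.51 ± 0.51), and Chchd10, a protein of the mitochondrial intermembrane space, 11.01 and 20.9 against 0.36 and 0.39 (-5.15 ± 0.61). AI464131 had 16.1 and 15.3 against 0.73 and 1.24 FPKM (-4.005 ± 0.23). Without A-485 replicate 1 the values of Fcgr3, Chchd10 and Zfp54 were -6.26, -6.18 and -8.23, and without replicate 2 those of Fcgr3, Chchd10, Zfp54 and Impdh2 were -3.70, -4.51, -6.67 and -5.04. The peaks of Fcgr3, Chchd10 and AI464131 were in both A-485 lists. Ccdc127 was the one gene above 10 FPKM whose rise passed the naming rule, with 8.21 and 5.56 FPKM against 12.9 and 17.04 (1.53 ± 0.19, adjusted p = 0.00012).

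Among the 8 members with the highest enrichment found again in both A-485 lists, 1 gene was called lower at early 2-cell, beside 12.7% of all genes. It was Cbwd1, with 12.4 and 15.0 FPKM against 8.19 and 9.16 and a log2 fold change of its counts of -2.35 ± 0.24. For this gene the counts and the FPKM values, which also depend on the isoforms' lengths, differ in size. Stat3 had 30.0 and 29.7 against 28.2 and 32.2 FPKM, and Mrps33 28.5 and 21.9 against 34.8 and 30.0. The groups overlapped for Stat3 and not for Mrps33, and neither gene was called. Epc1, a subunit of the NuA4 acetyltransferase complex, had 82.4 and 80.2 against 80.2 and 83.7 FPKM.

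Among the 8 strongest members found in neither A-485 list, 3 genes were called lower at early 2-cell. The share was 12.7% over all genes and 24.4% over all genes of members in neither list. Ankrd22 had 5.22 and 4.74 FPKM with DMSO and 0.25 and 0.38 with A-485 (-3.60 ± 0.49, adjusted p = 0.00026). Btn2a2 had 1.28 and 0.76 against 0.07 and 0.02 FPKM, which is 93 against 4 counts and a ratio of 24.8 (9.36 to 92.9). The zinc finger gene Zfp981 had 19.5 and 16.2 against 7.28 and 7.26 FPKM (-1.27 ± 0.15). The other 5 were not called. Kat14 had 12.8 and 13.4 FPKM with DMSO against 14.9 and 12.4 with A-485, and its zygote level had been 86.9 and 84.5 FPKM. Dppa3 also had its peak in neither list, with 1730 and 1531 against 1792 and 1806 FPKM at early 2-cell (0.16 ± 0.07, adjusted p = 0.19).

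Of the 24 histone genes with a member peak, 1 was called lower at early 2-cell and 0 were called higher, beside 12.7% lower of all genes, with a median log2 fold change of -0.30, and 12 of their 15 peaks had no early 2-cell A-485 peak. At late 2-cell 5 of 23 tested were lower and 3 higher, shares near the 23.8% and 15.0% of all genes. Hist2h2aa1 was among the higher ones, with 1263 and 1384 FPKM with DMSO and 5773 and 4601 with A-485. Copies of these genes are near-identical, and their counts are uncertain.

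At late 2-cell members were lower after A-485 more often than all genes, and higher less often. Of 4581 member genes tested 4214 passed the FPKM limit, 1431 (34.0%) were lower and 391 (9.28%) higher, beside 23.8% lower and 15.0% higher of all genes. The median log2 fold change was -0.43 for members and 0.02 for all genes tested. Of genes of newly opened promoter peaks of any type 38.3% were lower. Among protein-coding genes 36.6% of members, 41.3% of genes of newly opened promoter peaks and 26.9% of all were lower. By fate, 34.2% of genes of members in both A-485 lists, 30.7% for the early 2-cell list only, 34.4% for the late 1-cell list only and 40.0% for neither were lower. Values are relative to the other RNA of a library. Mitochondrially encoded protein genes took 5.35 to 5.43% of counts in the A-485 libraries and 2.35 to 2.44% in their DMSO libraries. With scaling to these genes 2495 members were lower and 148 higher, beside 6874 (42.8%) lower and 1177 higher of all genes. The medians were then -1.40 for members and -0.96 for all genes. The oocyte and zygote markers were higher, and the early 2-cell markers lower, in these A-485 than in these DMSO libraries (sums given above), and their part in the result was not tested. Less RNA per embryo in total and a changed mixture of RNAs cannot be told apart here.

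The 6 named decreases were of genes with more RNA at late than at early 2-cell in DMSO-treated embryos. They were picked as the largest falls among genes with 10 FPKM or more in the late 2-cell DMSO libraries, so the choice favours genes high there. Alppl2, a placental-like alkaline phosphatase, had 124 and 151 FPKM with DMSO and 0.62 and 0.46 with A-485 at late 2-cell (log2 fold change -8.40 ± 0.20, adjusted p = 1.3e-09), after 9.57 and 9.62 FPKM in early 2-cell DMSO libraries. Pheta1 had 17.7 and 23.6 FPKM against 0.29 and 0.47 (-5.94 ± 0.34), and its peak was in neither A-485 list. The small GTPase gene Rab43 had 20.6 and 24.3 FPKM against 1.40 and 2.92 (-5.83 ± 0.25). Rab40c, another small GTPase, had 11.6 and 9.08 against 1.01 and 0.21 (-5.99 ± 0.45), Cinp, a CDK2-interacting protein, 15.0 and 19.8 against 1.05 and 0.12 (-5.87 ± 0.65), and Ccdc126 31.7 and 24.4 against 0.43 and 0.94 (-5.54 ± 0.34). In all 6 the treated libraries lay below both DMSO libraries, as the naming rule required. For Rab43 and Rab40c the fold of the counts is larger than that of the FPKM values, which also depend on isoform length. Without A-485 replicate 1 the value of Cinp was -7.45, and without replicate 2 it was -5.07 for Cinp and -6.23 for Ccdc126.

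The increases named here were of genes at 4.98 FPKM or less in every DMSO library. They were picked as the largest rises among genes with 10 FPKM or more in the treated libraries, so the choice favours low DMSO levels. Spaca6, known for its role in sperm-egg fusion, had 0.23 and 0 FPKM with DMSO and 10.7 and 17.5 with A-485, which is 3 against 441 counts and a ratio of 221 (75.1 to 1076). Zswim9 had 0.40 and 0.26 against 16.1 and 15.9 FPKM (5.52 ± 0.28, adjusted p = 3.5e-08). The chemokine gene Ccl25 had 2.44 and 1.25 against 25.1 and 19.2 FPKM (3.72 ± 0.36), and Klf6, a Krüppel-like transcription factor, 0.73 and 1.03 against 13.9 and 9.25 (3.66 ± 0.41). Flrt3, a leucine-rich repeat transmembrane protein, had 1.21 and 1.28 against 20.3 and 16.0 (3.33 ± 0.25). Without DMSO replicate 2 the value of Klf6 was 4.55. The fitted value of Spaca6 was 7.47, and 10.9 and 6.63 without DMSO replicate 1 and 2. The peaks of Zswim9, Ccl25, Klf6 and Flrt3 were in both A-485 lists.

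Of the 8 strongest members in neither A-485 list, 5 were lower at late 2-cell. The share was 23.8% over all genes and 40.0% over all genes of members in neither list. Sfi1 had 213 and 204 FPKM with DMSO and 69.3 and 66.7 with A-485 (-1.97 ± 0.13, adjusted p = 1.7e-07), after no call at early 2-cell. Zfp981 had 67.7 and 64.6 against 15.53 and 17.6 FPKM (-2.18 ± 0.14), and Arhgap29, a GTPase-activating protein gene, 100.8 and 102.6 against 41.6 and 46.9 (-1.25 ± 0.14). Ankrd22 (-1.54 ± 0.44) and Btn2a2 (-2.04 ± 0.67) were the others. In all 5 both treated libraries lay below both DMSO libraries.

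The A-485 effect differed between the stages for many members. An interaction term in edgeR over the 8 libraries called 1135 of 4252 member genes (26.7%) more negative at late than at early 2-cell and 446 (10.5%) more positive, beside 14.8% and 14.0% of all genes. Leaving out single libraries gave 242 to 381 more positive (287 and 242 without late 2-cell DMSO replicate 1 and 2, 297 without early 2-cell A-485 replicate 1, 243 without early 2-cell DMSO replicate 1), and with scaling to mitochondrially encoded genes 2490 were more negative and 105 more positive. Magoh had 1021 and 1011 FPKM with DMSO against 846 and 858 with A-485 at early 2-cell, and 536 and 469 against 70.2 and 65.4 at late 2-cell, a difference of -2.92 ± 0.15 in log2 fold change. Dppa3 had 1205 and 987 against 220 and 266 FPKM at late 2-cell, a difference of -2.48 ± 0.16. Klf6 went the opposite way, with 0.79 and 0.59 against 1.25 and 0.74 FPKM at early 2-cell (no call) and the increase at late 2-cell, a difference of 3.24 ± 0.54. Of the 466 members lower at early 2-cell, 390 (83.7%) were also lower at late 2-cell, which is 27.3% of the 1431. Over all genes the shares were 74.1% and 32.0%. The 2 comparisons share no library.

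Decreases were most frequent among genes that rose in normal development. Of 1137 member genes that rose from zygote to late 2-cell in DMSO libraries not used in the A-485 comparisons of the 2-cell stages, 395 (34.7%) were lower after A-485 at early 2-cell, beside 39.6% of all such genes. Of 884 that fell in normal development 8 (0.90%) were lower, beside 0.60% of all such genes. Of 1741 that did neither 63 (3.62%) were, beside 4.32%. At late 2-cell 840 of 1278 rising members (65.7%) were lower, beside 58.1% of all rising genes. Of members with neither change 497 of 1961 (25.3%) were lower, beside 15.8%. Of falling members 94 of 898 (10.5%) were lower, beside 6.04% of all falling genes.

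**Figure D4:**
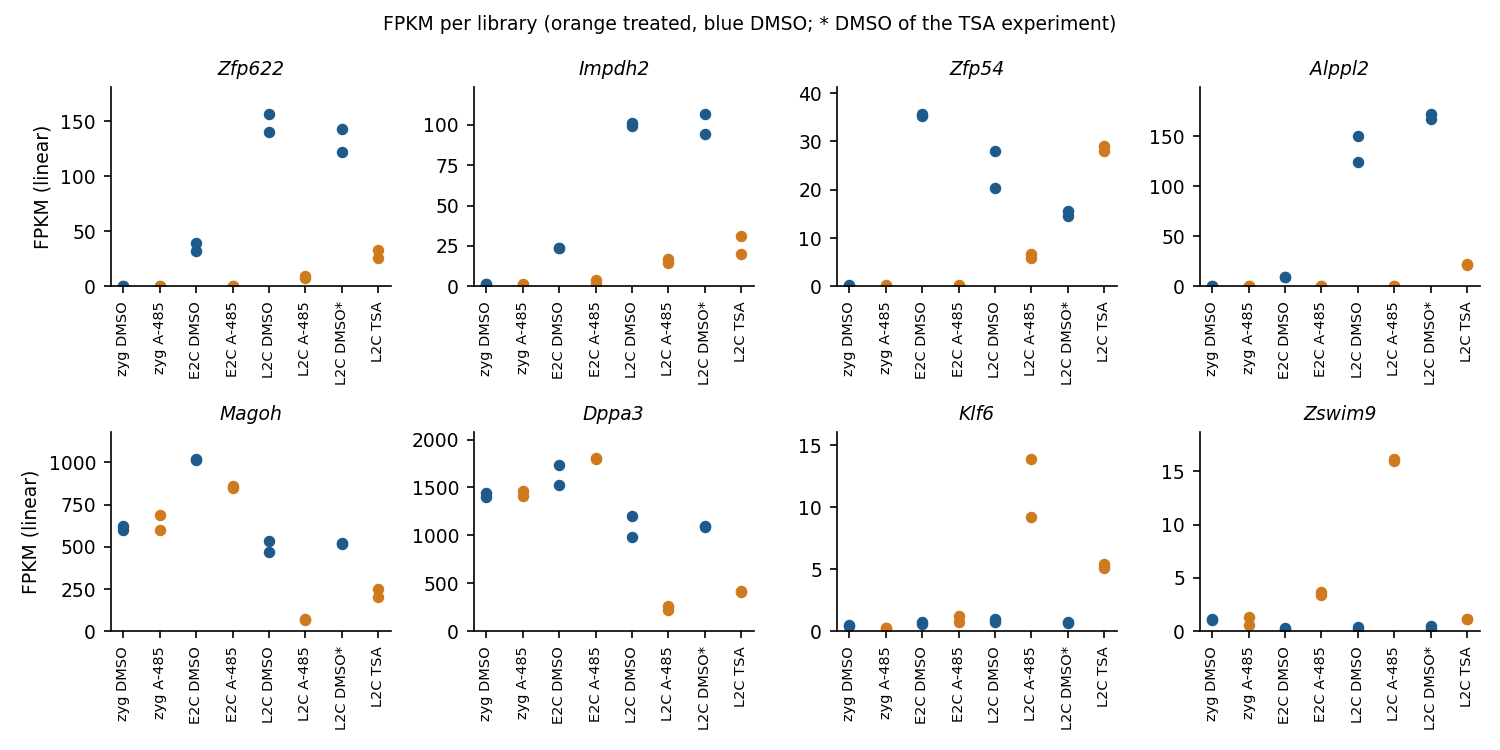
FPKM (linear scale, vertical axes) of 8 member genes in each library, 2 points per group, by stage and treatment (zyg, zygote; E2C, early 2-cell; L2C, late 2-cell; the asterisk marks DMSO of the TSA experiment). Zfp622, Impdh2 and Zfp54 are low in both early 2-cell A-485 libraries, Magoh and Dppa3 are lower at late 2-cell after A-485 than with DMSO, and Klf6 and Zswim9 are highest in late 2-cell A-485 libraries.

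More members were lower than higher after TSA. Of 4577 member genes tested 4139 passed the FPKM limit, 1169 (28.2%) were lower and 496 (11.98%) higher in TSA-treated than in DMSO-treated late 2-cell embryos, while of all genes 20.2% were lower and 20.2% higher. The median log2 fold change was -0.33, against -0.03 over all genes. Mitochondrially encoded protein genes took 3.66 to 3.72% of counts with TSA and 2.39 to 2.71% with DMSO. With scaling to total counts 811 members were lower and 710 higher, and the median of members became 0.03 and that of all genes 0.32. Over all genes this scaling gave 2384 (14.9%) lower and 4108 higher. Genes of newly opened promoter peaks were lower in 34.9% of cases. The late 2-cell A-485 and TSA comparisons use different libraries, and A-485 was removed at 20 hpi while TSA was kept until 28 hpi. Lower in both were 914 members, 63.9% of those lower after A-485 and 78.2% of those lower after TSA. Over all genes these shares were 62.8% and 73.9%. Higher in both were 124 members, 31.7% and 25.0%, beside 32.4% and 24.1% over all genes.

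The 6 members named for their decrease with TSA were also lower after A-485 at late 2-cell. Mta2, a subunit of the NuRD deacetylase complex, had 177 and 189 FPKM with DMSO and 18.1 and 16.7 with TSA (log2 fold change -4.02 ± 0.08, adjusted p = 1.1e-09). Cbx3, which encodes heterochromatin protein HP1γ, had 119 and 134 FPKM against 11.9 and 9.99 (-4.02 ± 0.10). Fbl, the fibrillarin methyltransferase of ribosomal RNA, had 87.1 and 84.9 against 7.91 and 7.51 FPKM (-3.86 ± 0.12). Each of the 3 was also lower after A-485 at late 2-cell, with log2 fold changes of -4.33 (Mta2), -1.96 (Cbx3) and -3.72 (Fbl). Gak, a kinase of clathrin uncoating, had 31.2 and 33.4 against 5.31 and 2.25 FPKM (-4.03 ± 0.16), Tmppe 20.7 and 23.2 against 1.97 and 1.87 (-3.87 ± 0.15), and Cox7c, a cytochrome c oxidase subunit, 15.6 and 17.8 against 1.62 and 1.05 (-3.89 ± 0.40).

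The 6 members named for their increase with TSA were at 0.84 FPKM or less in both DMSO libraries of that experiment. The rule picks the largest rises among genes high with TSA, so it favours low DMSO levels. Lipa, the lysosomal acid lipase, had 0.04 and 0.03 FPKM with DMSO and 11.2 and 10.3 with TSA, which is 5 against 1130 counts and a ratio of 303 (129 to 934). Ift27, an intraflagellar transport gene, had 0.56 and 0.59 against 35.1 and 37.3 FPKM (5.53 ± 0.28), and Stra8, a gene of meiotic entry, 0.32 and 0.31 against 26.1 and 9.94 (5.10 ± 0.40). Blvrb, a biliverdin reductase, had 0.42 and 0.65 against 19.8 and 19.6 FPKM (5.18 ± 0.34), the receptor tyrosine kinase gene Alk 0.16 and 0.20 against 9.89 and 11.1 (4.70 ± 0.25), and the chaperone gene Dnajb5 0.84 and 0.55 against 15.7 and 22.7 (4.65 ± 0.28). Both TSA libraries lay above both DMSO libraries for each, as the naming rule required, although the TSA libraries of Stra8 were far apart.

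Most members that serve ribosome production were lower at late 2-cell, while of all genes 12.7% were lower after A-485 at early 2-cell, 23.8% at late 2-cell and 20.2% after TSA. Of 36 cytosolic ribosomal protein genes with a member peak, 18 were lower after A-485 at early 2-cell, 33 at late 2-cell and 33 after TSA, with median log2 fold changes of -1.11, -2.41 and -1.79, and 0 were higher. Rpl26 had 124 and 131 FPKM against 40.4 and 37.0 at early 2-cell and 406 and 439 against 63.5 and 53.4 at late 2-cell. Of 39 ribosome biogenesis factors 12, 37 and 36 were lower. Npm1, the nucleolar chaperone nucleophosmin, had 495 and 434 against 156 and 163 FPKM at late 2-cell (-1.77 ± 0.11), and Ncl, nucleolin, 240 and 224 against 80.2 and 66.5 (-1.59 ± 0.10). Their promoter peaks were in both A-485 lists, and those of 36 of the 39 genes were in the early 2-cell A-485 list.

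In the other lists of basic functions more members were called lower after A-485 at late than at early 2-cell. The shares to set beside them are 12.7%, 23.8% and 20.2% of all genes for the 3 comparisons, and 12.4%, 34.0% and 28.2% of all members. These shares count only genes over the FPKM limit, while the list sizes below count all member genes. Over that limit were 14, 18 and 17 aminoacyl-tRNA synthetases and 17, 19 and 18 proteasome subunits. Of 23 translation initiation factors 3 were lower after A-485 at early 2-cell, 16 at late 2-cell and 18 after TSA. Eif4a1, the helicase of the cap-binding complex, had 254 and 227 FPKM with DMSO and 81.5 and 79.7 with A-485 at late 2-cell. Of 26 genes of RNA polymerase II and Mediator 5, 16 and 16 were lower, and of 23 splicing factors 5, 13 and 11. Snrpe, a core protein of spliceosomal particles, fell from 135 and 149 to 26.6 and 38.3 FPKM at late 2-cell (-2.34 ± 0.25), while Gtf2a1, a subunit of TFIIA, had 280 and 254 against 252 and 272 FPKM and was not called. All 5 chaperonin subunits with a member peak were lower at late 2-cell after A-485 and 0 at early 2-cell. The most reduced, Cct3, had 81.7 and 86.2 against 10.3 and 11.5 FPKM. Of 40 respiratory chain genes 4, 17 and 22 were lower, of 40 cell cycle and replication genes 6, 20 and 14, of 24 mitochondrial ribosomal protein genes 2, 11 and 7, of 19 proteasome subunits 2, 9 and 8, and of 18 aminoacyl-tRNA synthetases 1, 9 and 6. Ccnb1, the mitotic cyclin B1, had 257 and 253 against 92.1 and 91.0 FPKM at late 2-cell. The proteasome activators Psme3 and Psme4 were not called in any comparison. Up to 3 genes of each of these families were called higher in any of the 3 comparisons.

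Of chromatin regulators, 4 of 10 histone acetyltransferases, 4 of 18 deacetylases (22.2%) and 4 of 8 bromodomain genes had a member peak, beside 18.8% of all protein-coding genes. Of the 4 acetyltransferases 0 were lower at early 2-cell and 1, Kat7, at late 2-cell, with 19.4 and 25.8 FPKM against 16.8 and 19.8 and a log2 fold change of its counts of -1.14 ± 0.18. Kat6a had 71.1 and 69.1 FPKM against 68.5 and 71.1 and was not called. Of 4 deacetylases, Hdac1 was lower at both stages, with 33.3 and 28.1 against 3.86 and 7.07 FPKM at early 2-cell (-3.07 ± 0.25) and 89.1 and 98.8 against 15.7 and 21.2 at late 2-cell (-3.17 ± 0.15), and it was lower after TSA as well (-1.10 ± 0.11). Hdac6 and Hdac4 were lower at late 2-cell, and Hdac2 was not called there, with 45.9 and 40.3 against 31.3 and 37.9 FPKM. Of 4 bromodomain genes, Brd2, Brd8 and Brd9 were lower at late 2-cell after A-485 and Brdt was not called, with 225 and 202 against 316 and 329 FPKM and a log2 fold change of its counts of 0.13 ± 0.11. Of 13 promoter-binding factors 3, 8 and 6 were lower in the 3 comparisons and 1, 0 and 1 higher. For all lists of this paragraph, the shares over all genes were 12.7%, 23.8% and 20.2% lower and 0.647%, 15.0% and 20.2% higher. Klf17, an oocyte and embryo Krüppel-like factor, had 155 and 161 against 87.0 and 75.6 FPKM at late 2-cell (-1.16 ± 0.12).

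Developmental genes were few. Of the 5 developmental transcription factors with a member peak, 4 were tested at early 2-cell, where 2 were lower after A-485, Tbx20 among them. At late 2-cell 3 were higher, Tbx20 and Pax9 among them, and Sox12 was lower. After TSA 3 were higher, again with Tbx20 and Pax9. Of all genes 12.7% were lower at early 2-cell, 23.8% lower and 15.0% higher at late 2-cell after A-485, and 20.2% higher after TSA. Tbx20, a T-box factor of heart development, had 11.6 and 4.73 FPKM against 0.89 and 1.14 at early 2-cell (-3.01 ± 0.26), 5.60 and 2.75 against 6.72 and 7.72 at late 2-cell (1.16 ± 0.39, adjusted p = 0.034), and 2.83 and 2.16 against 11.5 and 11.9 with TSA (1.71 ± 0.20). Pax9 had 0.43 in both DMSO libraries against 6.37 and 4.88 FPKM with TSA (2.95 ± 0.26). Pramel1, from the list of multicopy 2-cell genes, had 4.94 and 5.11 against 0.69 and 0.95 FPKM at early 2-cell (-2.60 ± 0.28).

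Minor ZGA genes had a member peak about as often as all protein-coding genes (18.8%). Of 558 early 2-cell minor ZGA genes, which the study chose by their loss when transcription was blocked, 108 (19.4%) had a member peak. The study took this list from its own libraries, so its direction is not independent evidence. Of the 108, 72 were lower after A-485 at early 2-cell and 1 higher, 73 lower and 8 higher at late 2-cell, and 51 lower and 25 higher after TSA. Of all genes 12.7% were lower and 0.647% higher at early 2-cell, 23.8% and 15.0% at late 2-cell, and 20.2% and 20.2% after TSA. The peaks of 95 of the 108 were in the early 2-cell A-485 list and those of 6 in neither list. Of all member peaks 93.7% were in the early 2-cell A-485 list. Of 6 members among 30 zygote minor ZGA genes, 5 had a peak in the early 2-cell A-485 list.

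**Figure D5:**
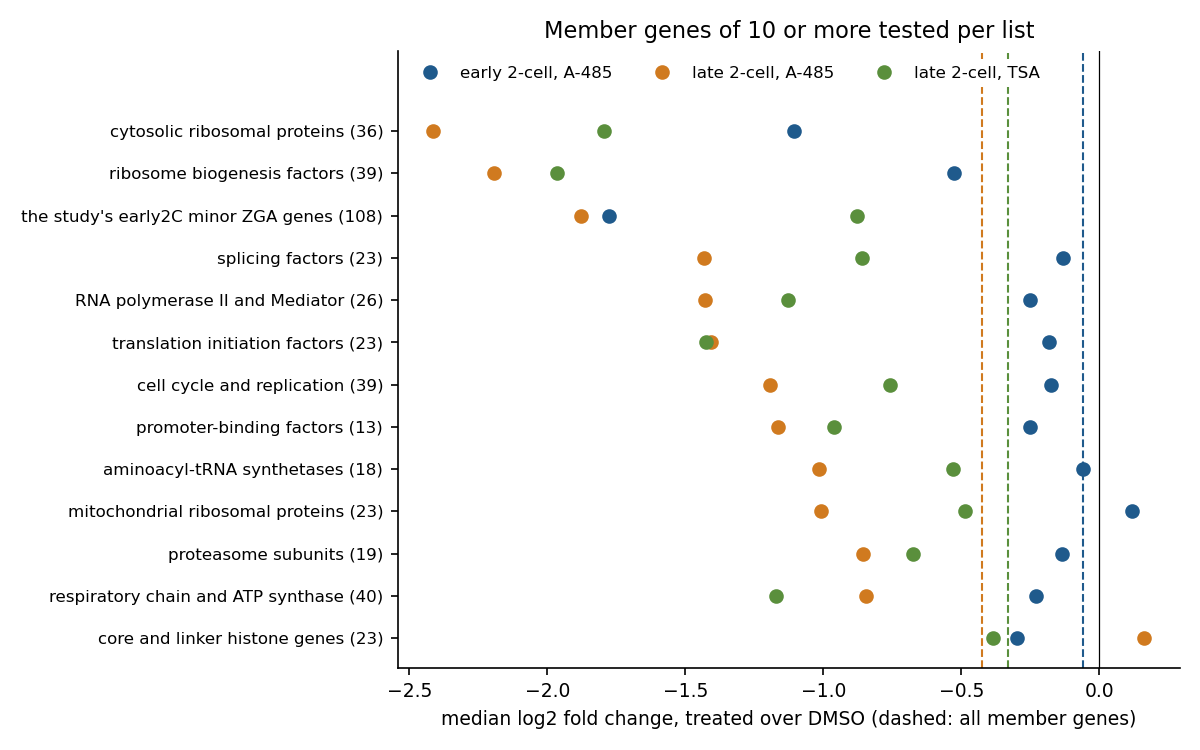
Median log2 fold change (horizontal axis, treated over DMSO) of the member genes of each gene list with 10 or more tested, for A-485 at early 2-cell, A-485 at late 2-cell and TSA at late 2-cell. The number of genes tested at late 2-cell is in parentheses and dashed lines are the medians of all member genes (-0.06, -0.43 and -0.33). Cytosolic ribosomal proteins lie lowest at late 2-cell after A-485, at -2.41, and ribosome biogenesis factors lie lowest after TSA, at -1.97.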

How the data were processed

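RNA-seq (SMART-Seq Stranded) was made from 16 libraries of pooled embryos. The authors trimmed reads with Trimmomatic 0.39, aligned them to GRCm38 with STAR 2.7.8a and quantified them with RSEM 1.3.1, and the deposited values are expected counts and FPKM for 55385 genes. The strand setting of RSEM is not given in the sources used here, so overlapping and antisense genes are uncertain. For ATAC-seq the authors deposited 1 peak list per group, made with the ENCODE pipeline from 2 replicates by IDR (a measure of how peaks rank alike in both), with fold enrichment, −log10 p and q values and a score. Rows that gave further summits of one peak were joined. The methods do not name the build of the ATAC-seq lists. The labels name GRCm38, a start was within 1 kb of 28.99% of early 2-cell DMSO peaks against 10.7% after a shift of 1000000 bp, and 0 lay past a chromosome end. The H3K27ac libraries of the series were not used here.

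After rounding, the expected counts were tested with edgeR 4.0.16 (quasi-likelihood test, TMM scaling, R 4.3.3) on all genes with at least 10 counts over a comparison's libraries, with Benjamini-Hochberg adjustment over all genes tested. Genes were called at 2-fold or more with an adjusted p under 0.05 and 1 FPKM as the mean of either group, and the interaction term an adjusted p under 0.05. Errors of log2 fold changes are standard errors. Where each library of a group had 3 counts or fewer, the ratio of summed counts per total count is given with its exact 95% interval, which covers counting error only. Alternatives were DESeq2 1.42.0, other scalings, filters, peak overlaps and gene assignments, and leaving out each library. The code was tested on simulated data. Totals of 13206163 to 32585987 counts per library bound the precision, and depth of the ATAC-seq libraries is unknown from the peak lists. Intervals on shares are 95% Wilson intervals.

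Genes were named by rule: the 8 strongest peaks in both and in neither A-485 list, up to 6 called genes per direction and comparison with 10 FPKM or more and no overlap between groups, the 10 highest at early 2-cell, the 2 highest of each gene list, and all members of lists with 5 or fewer. Provisional symbols were passed over in all but the gene lists. The members and lists were chosen with earlier results of these data known. Replicates of a group differed beyond counting error (chi-square per degree of freedom 9.44 to 19.6), and no source says that they came from separate cultures, so p-values measure the spread between these samples, which may be technical. The number of columns of per-sample values left unused was 0. Some results that these rules would name are not reported here.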

Additional observations from a re-analysis of the deposited data

Results flagged for a closer look

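The A-485 effect differed between late and early 2-cell, by the interaction term in edgeR, for 56 of the 108 named genes that were called after A-485 at either stage, and 17 of them, named for their change or their level, are given here. The values are log2 fold changes at late minus early 2-cell. More negative at late 2-cell were Rab40c (-5.83), Cinp (-4.99), Pheta1 (-4.47), Alppl2 (-3.71), Rab43 (-3.49), Magoh (-2.92), Dppa3 (-2.48), Ccdc126 (-2.26) and Cks2 (-1.98). More positive were Spaca6 (8.88), Zfp54 (5.14), Flrt3 (3.52), Klf6 (3.24), Zfp622 (2.51), Ccl25 (2.30), Zswim9 (1.75) and Hist2h2aa1 (1.65). Zfp54 and Zfp622 were lower after A-485 at both stages, by less at late 2-cell. The value of Spaca6, with a DMSO library at 0 at each stage, depends on the prior count of the fit.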

How the results depend on the processing

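The share of members found in the early 2-cell A-485 list (93.7%) was 92.1% when 50% of the peak had to be covered, 89.95% of 1254 members with the same number of strongest peaks in each list, and 73.1% with the upper 50% of the A-485 list. For late 1-cell (83.0%) these shares were 79.2%, 91.9% and 53.8%, and 84.8% for members of which late 1-cell peaks covered 50%. With scaling to mitochondrially encoded genes, 2495 members were lower and 148 higher at late 2-cell after A-485, and 2161 lower and 678 higher in normal development. By the interaction 2490 were more negative and 105 more positive, and in the zygote 4 were higher. Over all genes this scaling gave 6874 (42.8%) lower and 1177 higher at late 2-cell after A-485. In normal development it gave 8047 (56.5%) lower and 2911 higher, and in the zygote 14 higher. The cause was not tested. Higher in the zygote were 3 without a low-count filter, and 1 was lower among protein-coding genes. With the nearest start only, 10 were higher at early 2-cell and 248 at late 2-cell, and 245 among protein-coding genes there, where fewer genes are counted. Leaving out each library gave 2 to 5 lower and 0 to 2 higher in the zygote (5 lower without A-485 replicate 1, 4 without A-485 replicate 2; 2 higher without A-485 replicate 1 or DMSO replicate 2), 11 to 22 higher at early 2-cell (11 without A-485 replicate 1), and 242 to 381 more positive by the interaction (287 and 242 without late 2-cell DMSO replicate 1 and 2, 297 without early 2-cell A-485 replicate 1, 243 without early 2-cell DMSO replicate 1). A replicate block gave 2 higher in the zygote, 495 lower at early 2-cell, 1442 at late 2-cell and 1177 with TSA. Replicate numbers were only shared numbers (correlations of replicate differences -0.05 to 0.12). All 279 alternatives of 31 named log2 fold changes kept direction and call, but not their size. Leaving out 1 library moved those of Zfp54, Chchd10, Fcgr3, Impdh2, Cinp, Ccdc126, Spaca6 and Klf6 by more than 1.5 times, as given with each gene, and scaling to mitochondrially encoded genes moved those at late 2-cell after A-485 by as much.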
